A study of Drosophila melanogaster with 18 samples.

Results

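The dorsoventral axis of the fruit fly embryo is set by a signalling pathway whose components the mother loads into the egg, and the 9 genes described here encode its central chain: gd, snk, ea, spz, Tl, tub, pll, cact and dl. They were chosen by FlyBase symbol, without use of their values, from 9236 genes listed in at least 1 of the deposited tables. All 9 were listed at all 3 times and all 9 passed the filter on low values (an average of at least 10 normalized counts across the 6 libraries of that time) at every time.

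RNA was sequenced from whole Drosophila melanogaster embryos of the orb2-delta-zz genotype, which lacks the zinc-binding ZZ domain of the RNA-binding protein ORB2, and of the wild type, strain w1118, which the labels describe as a control from before injection. Both genotypes were sampled in the windows 0-1h, 1-2h and 2-3h from egg laying, each group with 3 libraries (18 in all), and the flies were kept at 1 temperature and light cycle. The genotype of the mothers and fathers and the number of orb2-delta-zz lines are not given in the labels. Nothing in the labels says that the 3 libraries of a group came from separate collections, so the p-values measure the spread between these libraries, which may be technical.

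In the perivitelline space around the egg, a cascade of serine proteases (Gastrulation defective, Snake, Easter) cuts the ligand Spätzle on the ventral side. Cut Spätzle activates the receptor Toll, the adaptor Tube and the kinase Pelle pass the signal on, the inhibitor Cactus is destroyed, and the transcription factor Dorsal enters the ventral nuclei. There Dorsal switches on genes such as twi and sna and keeps others, such as zen and dpp, off. The comparison of genotypes asks how far the levels of these transcripts differ when that domain is missing; by the title of the series, ORB2 restrains its targets through it.

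Library totals lay between 33570500 and 38481900 normalized counts, and between 998329 and 999093 in TPM. These totals are set by scaling and do not measure depth, so the number of reads behind each value is unknown and no counting interval is given. No pair of libraries held identical values, and the lowest Pearson's r across genes between libraries of 1 group was 0.959. Markers of the maternal embryo (bcd, osk, gcl, swa, exu, pgc) were listed at all times, 6 of 6, while markers of follicle cells and eggshell were listed for 0 of 12 genes at 0-1h and 1-2h and for 2 of 12 at 2-3h, where their summed level was at most 2.67 TPM. Of 3 fat body and haemocyte markers 1, Hml, was listed, at 2-3h alone, at 0.128 TPM or less, and called lower in orb2-delta-zz (log2 fold change -1.51, adjusted p = 0.0475, limma), a call lost without any 1 library but wild type replicate 1 (up to 0.210) and in TPM (0.520). The mean normalized count of orb2 itself was 2226 in orb2-delta-zz and 2838 in wild type libraries at 0-1h (log2 fold change -0.35, adjusted p = 0.00233, limma), and reads from outside the deleted domain do not check the deletion.

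Levels between genes are given in TPM, a unit that corrects for transcript length and gives a share of all transcripts measured. At 0-1h all 9 transcripts were present in both genotypes and spanned a wide range. The receptor Tl averaged 279 ± 12.4 TPM in orb2-delta-zz and 266 ± 18.6 TPM in wild type (SD, n = 3 each). The inhibitor cact averaged 227 ± 14.8 TPM in orb2-delta-zz and 234 ± 19.7 TPM in wild type. These were the most abundant of the 9, and in orb2-delta-zz Tl was above cact in every library, while in wild type their libraries overlapped. The adaptor tub followed at 105 ± 1.79 TPM in orb2-delta-zz and 109 ± 4.42 TPM in wild type, and the transcription factor dl at 93.2 ± 2.70 TPM in orb2-delta-zz and 88.5 ± 6.48 TPM in wild type. The ligand spz stood at 60.9 ± 5.03 TPM in orb2-delta-zz and 53.7 ± 8.71 TPM in wild type. The proteases were the least abundant: ea at 38.3 ± 2.59 TPM in orb2-delta-zz and 39.4 ± 2.16 TPM in wild type, snk at 27.6 ± 2.83 TPM in orb2-delta-zz and 27.4 ± 0.518 TPM in wild type, and gd at 8.49 ± 0.846 TPM in orb2-delta-zz and 8.29 ± 1.17 TPM in wild type. The kinase pll, at 41.0 ± 3.81 TPM in orb2-delta-zz and 41.7 ± 2.74 TPM in wild type, overlapped ea in both genotypes and spz in wild type. The order of the means was the same in both genotypes at 0-1h.

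Over the next hours the members parted. The tables of the 3 times were normalized separately, so changes with time are a description in TPM and were not tested. In the plot of TPM by library, dl, spz, gd, snk and tub lie far lower at 2-3h than at 0-1h, and cact, Tl and ea lie near their first level. The 2-3h mean as a share of the 0-1h mean, called the level held below, ranged over the 9 members from 2.56% to 111% in orb2-delta-zz and from 2.26% to 119% in wild type. This share does not separate transcript that remained from transcript newly made. Its median over all genes that were listed at all 3 times and averaged at least 5 TPM at 0-1h was 65.6% in orb2-delta-zz (6448 genes) and 67.9% in wild type (6438 genes).

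**Figure D1:**
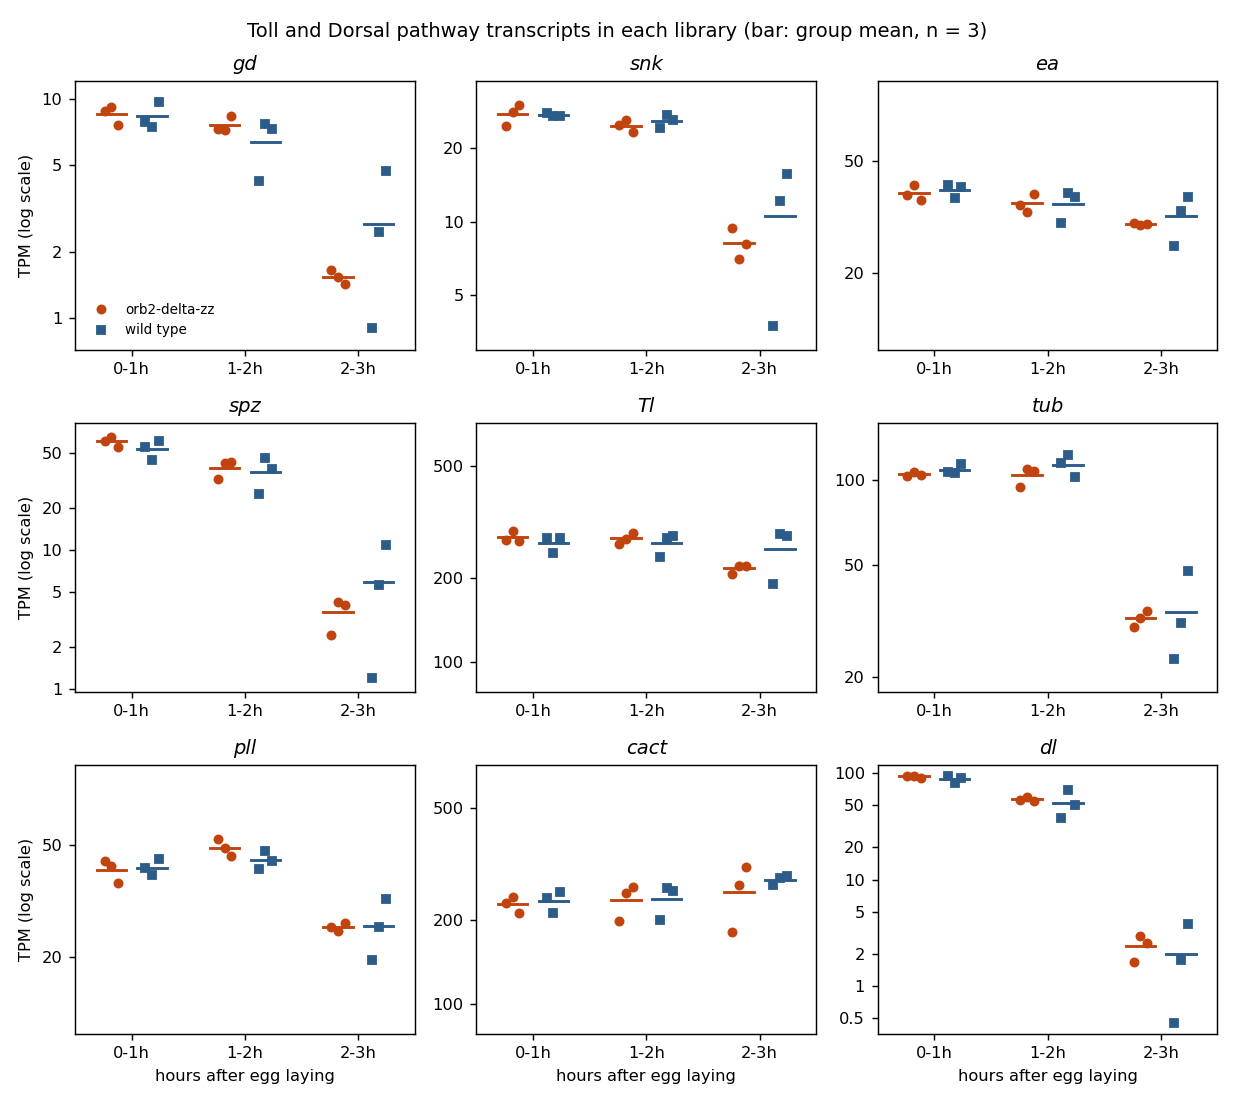
TPM (log axis) of each of the 9 pathway transcripts against hours after egg laying, with orb2-delta-zz libraries as circles, wild type libraries as squares and a bar at each group mean (n = 3). The dl mean at 2-3h is 2.38 TPM in orb2-delta-zz and 2.00 TPM in wild type, while cact stands at 251 and 277 TPM in the same groups.

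The transcription factor dl (chromosome 2L, 17436830 to 17450364, minus strand, BDGP6.54 annotation) held the smallest share of its first level among the 9. At 1-2h it was at 61.3% of its 0-1h level in orb2-delta-zz and 59.5% in wild type. At 2-3h the orb2-delta-zz libraries had 1.68, 2.93 and 2.53 TPM and the wild type libraries 0.444, 1.75 and 3.81 TPM. The groups overlapped, with the orb2-delta-zz libraries inside the wild type range. The level held was 2.56% in orb2-delta-zz and 2.26% in wild type, and only 1.50% of genes in orb2-delta-zz and 1.10% of genes in wild type held less.

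Its inhibitor cact (2L, 16313036 to 16326207, minus strand) had a 2-3h mean of 111% of its 0-1h mean in orb2-delta-zz and 119% in wild type. At 0-1h it had 229.9, 240.0 and 211 TPM in orb2-delta-zz and 239, 212 and 250.3 TPM in wild type libraries. At 2-3h the orb2-delta-zz libraries had 180.3, 265 and 308 TPM and the wild type libraries 266, 279.9 and 286 TPM. In wild type every 2-3h library was above every 0-1h library; the same held for 29.4% of all genes compared. In orb2-delta-zz the libraries of 0-1h and 2-3h overlapped, with replicate 1 of 2-3h lowest of all. The ratio of cact to dl, both in TPM, was 2.34 to 2.53 in orb2-delta-zz and 2.55 to 2.76 in wild type libraries at 0-1h. It was 3.53 to 4.71 in orb2-delta-zz and 3.70 to 5.25 in wild type at 1-2h, and 90.7 to 122 in orb2-delta-zz and 75.2 to 599 in wild type at 2-3h. The ranges of the genotypes did not overlap at 0-1h, by a narrow margin, and overlapped at 1-2h and 2-3h; this ratio was not tested.

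The ligand and its receptor also parted. The transcript of spz (3R, 27064990 to 27070070, minus strand) held 64.6% of its 0-1h level at 1-2h in orb2-delta-zz and 68.4% in wild type. At 2-3h it was at 2.43, 4.21 and 3.99 TPM in orb2-delta-zz and at 1.19, 5.55 and 10.9 TPM in wild type libraries, which overlap. It then held 5.82% in orb2-delta-zz and 11.0% in wild type. Tl (3R, 26799041 to 26842403, plus strand) had 207, 221 and 220.5 TPM in orb2-delta-zz and 190.4, 287 and 281 TPM in wild type at 2-3h, so that the wild type libraries lay on both sides of the orb2-delta-zz ones. It held 77.5% of its 0-1h level in orb2-delta-zz and 94.9% in wild type. The ratio of Tl to spz in TPM had a median of 4.45 in orb2-delta-zz and 5.01 in wild type at 0-1h, and of 55.3 in orb2-delta-zz and 51.6 in wild type at 2-3h. At 2-3h it ran from 52.4 to 85.0 in orb2-delta-zz libraries and from 25.7 to 160 in wild type libraries, and it was not tested.

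The proteases, which act in order gd, snk, ea, were held in the same order. The first of them, gd (X, 11985154 to 11987764, minus strand), had 1.65, 1.53 and 1.42 TPM in orb2-delta-zz and 0.893, 2.46 and 4.65 TPM in wild type at 2-3h, and held 18.1% in orb2-delta-zz and 32.2% in wild type. For snk (3R, 13040165 to 13042770, minus strand) the 2-3h values were 9.43, 7.03 and 8.10 TPM in orb2-delta-zz and 3.75, 12.2 and 15.7 TPM in wild type, with 29.6% held in orb2-delta-zz and 38.5% in wild type. For both genes the 3 orb2-delta-zz libraries lay above wild type replicate 1 and below wild type replicates 2 and 3. The last protease, ea (3R, 15328729 to 15330408, plus strand), which cuts Spätzle itself, had 30.0, 29.5 and 29.9 TPM in orb2-delta-zz and 24.9, 33.2 and 37.1 TPM in wild type at 2-3h. It held 77.7% in orb2-delta-zz and 80.5% in wild type, more than either upstream protease.

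The cytoplasmic pair differed from each other as well. The adaptor tub (3R, 4387742 to 4389813, plus strand) was near its first level at 1-2h, at 98.8% in orb2-delta-zz and 104% in wild type, and held 30.7% in orb2-delta-zz and 31.2% in wild type at 2-3h. At 2-3h its libraries had 30.1, 32.4 and 34.3 TPM in orb2-delta-zz and 23.1, 31.1 and 47.6 TPM in wild type. The kinase pll (3R, 27251131 to 27253182, minus strand) had 52.7, 49.1 and 45.8 TPM in orb2-delta-zz at 1-2h, every library above the 0-1h libraries, as for 27.9% of all genes, and 41.2, 47.8 and 44.2 TPM in wild type, where the times overlapped. At 2-3h it held 62.6% in orb2-delta-zz and 61.9% in wild type. The whole of pll, 2052 bases, lies within TfIIA-L on the opposite strand, whose transcript is listed too. The libraries were strand-specific, but the sources used here do not say whether quantification used the strand, so the pll values are uncertain. The other overlaps with listed genes were short, 62 bases of cact with fzy and 20 bases of snk with CG11668.

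Counting members by library, 8 of the 9 were lower in every orb2-delta-zz library of 2-3h than in every one of 0-1h, the exception being cact; 55.6% of all genes met the same condition. None was higher in that sense, against 29.0%. In wild type 6 of 9 were lower in every library, against 49.2% of all genes, with ea and Tl overlapping and cact higher. Between 0-1h and 1-2h dl and spz were lower in every orb2-delta-zz library, against 38.1% of all genes, and dl alone in wild type, against 32.4%. At 1-2h the means of the other 7 members were still at 76.7% to 120% of their 0-1h means. At 2-3h the order of the means ran cact, Tl, tub, ea, pll, snk, spz, dl, gd in orb2-delta-zz, and the same in wild type except that gd came before dl. In wild type at 2-3h neighbours in this order overlapped, apart from Tl above tub and pll above snk. Fewer cells that hold a transcript and less of it per cell cannot be told apart in whole embryos.

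The genes whose TPM followed dl most closely over the 18 libraries, on log2(TPM + 1) and among 6694 genes, were Tsp74F (Pearson's r = 0.999), Hnf4 (0.998) and cwo (0.998), given as a description since libraries of 1 time share their age. Tsp74F averaged 173 TPM in orb2-delta-zz and 149.9 TPM in wild type at 0-1h, and 3.83 TPM in orb2-delta-zz and 2.95 TPM in wild type at 2-3h. Among the members spz (0.984) and tub (0.979) were most like dl, and cact (-0.35) least.

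No genotype difference of any of the 9 members passed the test at any time. In limma on log2(normalized count + 1) with Benjamini-Hochberg adjustment over all genes, 0 of 9 members were called at 0-1h, where 21.3% of the 7559 genes tested were called. At 1-2h 0 of 9 were called, against 7.37% of 8095 genes, and at 2-3h 0 of 9, against 3.28% of 9014 genes. No member had an unadjusted p under 0.05 at any time in this fit, while 34.4%, 24.2% and 16.3% of all genes did at 0-1h, 1-2h and 2-3h. By limma with library weights 4 of 9 members were called at 2-3h, all lower. Of all genes 21.3% were then called lower and 43.1% in either direction. The median log2 fold change of the 9, orb2-delta-zz over wild type, was -0.028 at 0-1h, -0.024 at 1-2h and -0.19 at 2-3h, and that of all genes was -0.0080, -0.0074 and -9.4e-05.

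**Figure D2:**
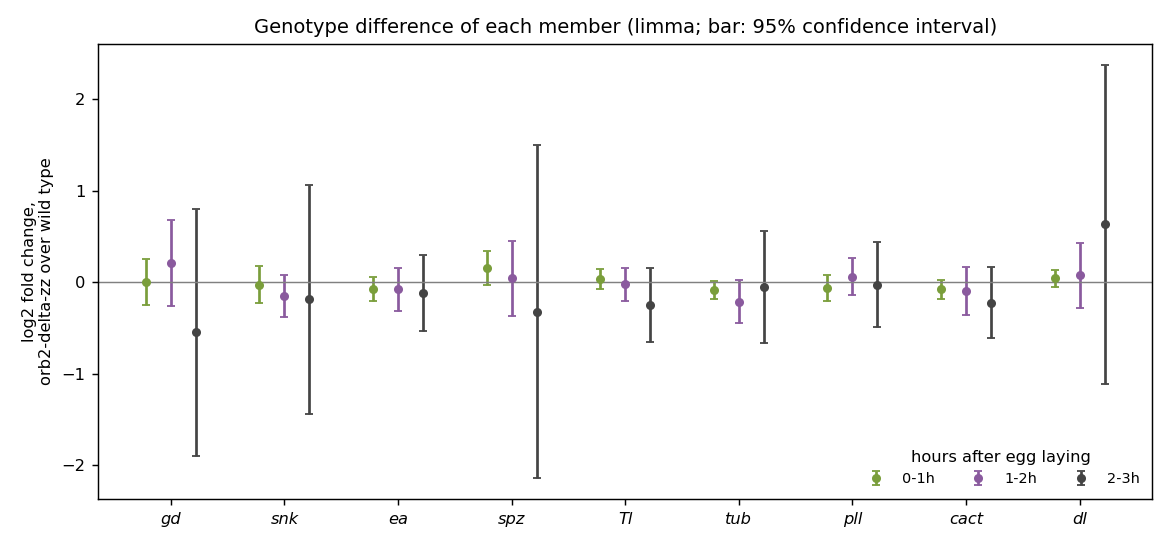
Log2 fold change, orb2-delta-zz over wild type, of each member at each time, from limma on log2(normalized count + 1), with bars for 95% confidence intervals from 3 libraries per genotype. Every interval includes 0; those of dl and spz are widest at 2-3h, -1.11 to 2.37 and -2.14 to 1.50.

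How much of a difference these data could have missed depended on the time. At 0-1h the intervals were narrow. The normalized counts of dl were 5522, 5417 and 5427 in orb2-delta-zz and 5494, 5154 and 5252 in wild type, which overlap, and its log2 fold change was 0.042 with a 95% interval of -0.048 to 0.13 (adjusted p = 0.495). For Tl the interval was -0.075 to 0.14, for cact -0.18 to 0.029, for tub -0.18 to 0.013, for ea -0.20 to 0.053 and for pll -0.20 to 0.079. The widest belonged to spz, whose log2 fold change was 0.16 with an interval of -0.030 to 0.34 (adjusted p = 0.216), to snk, at -0.23 to 0.18, and to gd, at -0.25 to 0.25. Members whose libraries did not overlap between genotypes numbered 0 at 0-1h, against 38.9% of all genes.

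At 1-2h the member nearest to the threshold was tub, with normalized counts of 4482, 5049 and 5020.1 in orb2-delta-zz and 6267, 5619 and 5033 in wild type. The groups overlapped at their edge and the log2 fold change was -0.21 (interval -0.45 to 0.023, unadjusted p = 0.0706, adjusted p = 0.248, limma). The only member without overlap was snk, with 900.1, 920.3 and 832 in orb2-delta-zz and 1008, 961 and 979 in wild type; 32.8% of all genes did not overlap. Its log2 fold change was -0.15 (interval -0.38 to 0.075, adjusted p = 0.387). For dl the value was 0.074 (interval -0.28 to 0.43) and for cact -0.095 (interval -0.35 to 0.16).

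At 2-3h the wild type libraries stood apart from each other, and the intervals were wide. The normalized counts of Tl were 26624, 26976 and 25290.0 in orb2-delta-zz and 23671, 36374 and 35431 in wild type, giving a log2 fold change of -0.25 (interval -0.65 to 0.15, adjusted p = 0.533). For dl it was 0.63 (interval -1.11 to 2.37, adjusted p = 0.720), for gd -0.55 (interval -1.90 to 0.80) and for spz -0.32 (interval -2.14 to 1.50). No member was without overlap, against 23.5% of all genes. The difference of the genotype effect between times, tested in 1 fit of the 18 libraries, was called for 0 of 9 members in each of the 3 comparisons, where 0.12% (1-2h minus 0-1h), 1.89% (2-3h minus 0-1h) and 0.79% (2-3h minus 1-2h) of 7470 genes were called.

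The spread in wild type at 2-3h had a direction shared by the members. In TPM all 9 were lowest in wild type replicate 1, and 8 of 9 were highest in replicate 3. The shares of all genes with these orders are not given. TPM in replicate 3 exceeded that in replicate 1 by 9.21 times for spz, 8.58 times for dl, 5.20 times for gd, 4.19 times for snk and 2.06 times for tub, but by 1.65 times for pll, 1.49 times for ea, 1.48 times for Tl and 1.08 times for cact. The median over 6436 genes was 1.07 times, and the share of these genes with a larger ratio ran from 0.357% for spz to 49.3% for cact. Among the 413 genes that held less than 10% of their 0-1h level in orb2-delta-zz, as dl and spz did, the median was 1.93 times. Of these genes 3.87% had a larger ratio than dl and 2.91% a larger one than spz. Among the 2090 genes that held 10% to 50%, as gd, snk and tub did, the median was 1.16 times. A larger ratio than gd, snk and tub was found in 1.96%, 4.35% and 21.6% of them. The median was 1.24 times for genes that held 50% to 100% and 0.953 times for those that held more. Summed maternal markers were at 236, 265 and 258 TPM in orb2-delta-zz replicates 1, 2 and 3 of 2-3h, and at 118, 296 and 493 TPM in wild type replicates 1, 2 and 3, the order in which most members stood. The part of embryo age within the collection in the members' values was not tested.

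**Figure D3:**
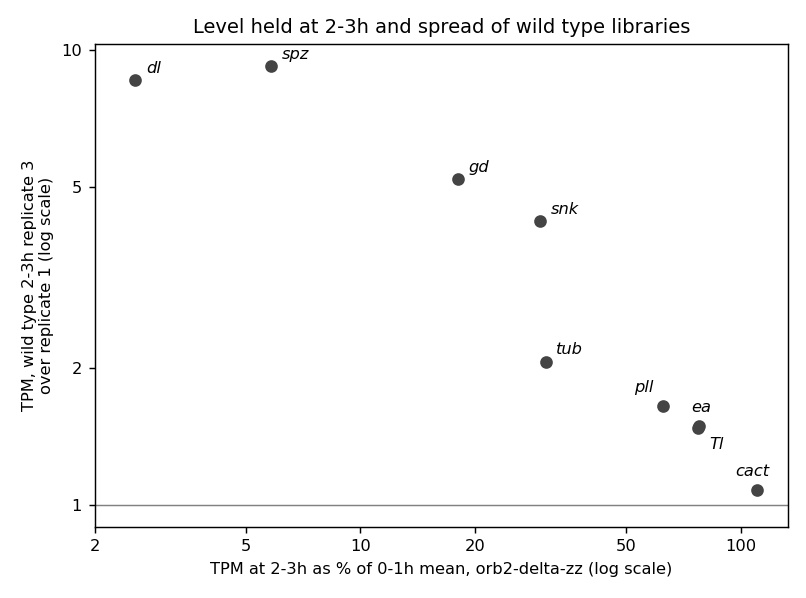
Ratio of TPM in wild type 2-3h replicate 3 to that in replicate 1 (log axis) against the percentage of the 0-1h mean held at 2-3h in orb2-delta-zz (log axis), 1 point per member, with a line at a ratio of 1. dl and spz, with 2.56% and 5.82% held, have ratios of 8.58 and 9.21, and cact, with 111% held, has a ratio of 1.08.

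The genotype result at 2-3h depended on that library, for the members as for genes at large. Without wild type replicate 1, 4 of 9 members were called lower in orb2-delta-zz, where 9.51% of 8950 genes were called lower and 18.5% were called in either direction (1654 genes, in place of 296). Their log2 fold changes were then -1.19 for gd (adjusted p = 0.0366), -0.82 for snk (adjusted p = 0.0336), -1.23 for spz (adjusted p = 0.0445) and -0.45 for Tl (adjusted p = 0.0156, limma throughout), and in the joint fit the genotype effect of the same 4 members differed from that at 0-1h and at 1-2h, where 16.7% and 18.7% of 7470 genes did. Limma's library weights were 0.529, 2.79 and 1.89 for orb2-delta-zz and 0.17, 6.78 and 0.312 for wild type replicates 1, 2 and 3, so that the wild type side rested mostly on replicate 2. With them 4 of 9 members were called, all lower, gd at -0.79, snk at -0.73, ea at -0.24 and Tl at -0.45. Of all genes 21.3% were called lower and 43.1% in either direction. The 4 of 9 were near the share in either direction and above the share called lower. Leaving out any of the other 5 libraries of 2-3h called 0 members. For dl no setting gave a call, and its log2 fold change ranged from -0.21 without wild type replicate 1 to 1.33 without wild type replicate 3.

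Among 24 other genes of the dorsal group and of Toll signalling, the test took in 22 at the earlier 2 times and all 24 at 2-3h. In orb2-delta-zz 2 of 22 were higher at 0-1h, where 11.2% of all genes were, and 1 of 22 at 1-2h, where 3.52% were. At 2-3h 1 of 24 was higher, against 1.55% of all genes, and 1 lower, against 1.73%. The gene called at every time was lwr (2L, 540599 to 542580, minus strand), which encodes the enzyme that conjugates the SUMO protein to its targets, Dorsal among them. Its normalized counts at 0-1h were 6436, 6712 and 6932 in orb2-delta-zz and 4202, 4048 and 4369 in wild type, a log2 fold change of 0.67 ± 0.046 (SE, adjusted p = 7.8e-06, limma). At 1-2h they were 9238, 9322 and 9354 in orb2-delta-zz and 4918, 5227 and 5684 in wild type, a change of 0.82 ± 0.078 (SE, adjusted p = 0.000931). At 2-3h they were 12413, 12258 and 12462 in orb2-delta-zz and 6876, 7162 and 6973 in wild type, a change of 0.82 ± 0.077 (SE, adjusted p = 0.00354). The genotypes did not overlap at any time, and the call held at each time when any 1 library was left out.

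The substrate of that enzyme, smt3 (Sumo in the annotation), which encodes SUMO, was not called at any time (log2 fold changes of 0.032, 0.11 and 0.23 at 0-1h, 1-2h and 2-3h). Myd88, the adaptor that joins Toll to Tube, rose in orb2-delta-zz at 0-1h, to 1769, 1781 and 1652 against 1396, 1346 and 1595 normalized counts in wild type (log2 fold change 0.27, adjusted p = 0.0265, limma). That call was lost without orb2-delta-zz replicate 1 or 2 or wild type replicate 1 or 2, with adjusted p-values of up to 0.0931, and in TPM (adjusted p = 0.0974). wbl, needed in follicle cells for the Pipe sulfotransferase to reach its place, was listed at 2-3h and lower in orb2-delta-zz, at 4.51, 5.65 and 5.82 against 32.6, 30.7 and 27.2 normalized counts in wild type (log2 fold change -2.30, adjusted p = 0.0123). This call was lost without any 1 of the orb2-delta-zz replicates or wild type replicate 2, with adjusted p-values of up to 0.0784. In TPM it was called, at -0.88. The median of the list was 0.032 at 0-1h, 0.12 at 1-2h and -0.031 at 2-3h. Of 7 partners and corepressors of Dorsal, such as gro and CtBP, 0 were called at any time, and their medians were -0.024, 0.0050 and 0.062.

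**Figure D4:**
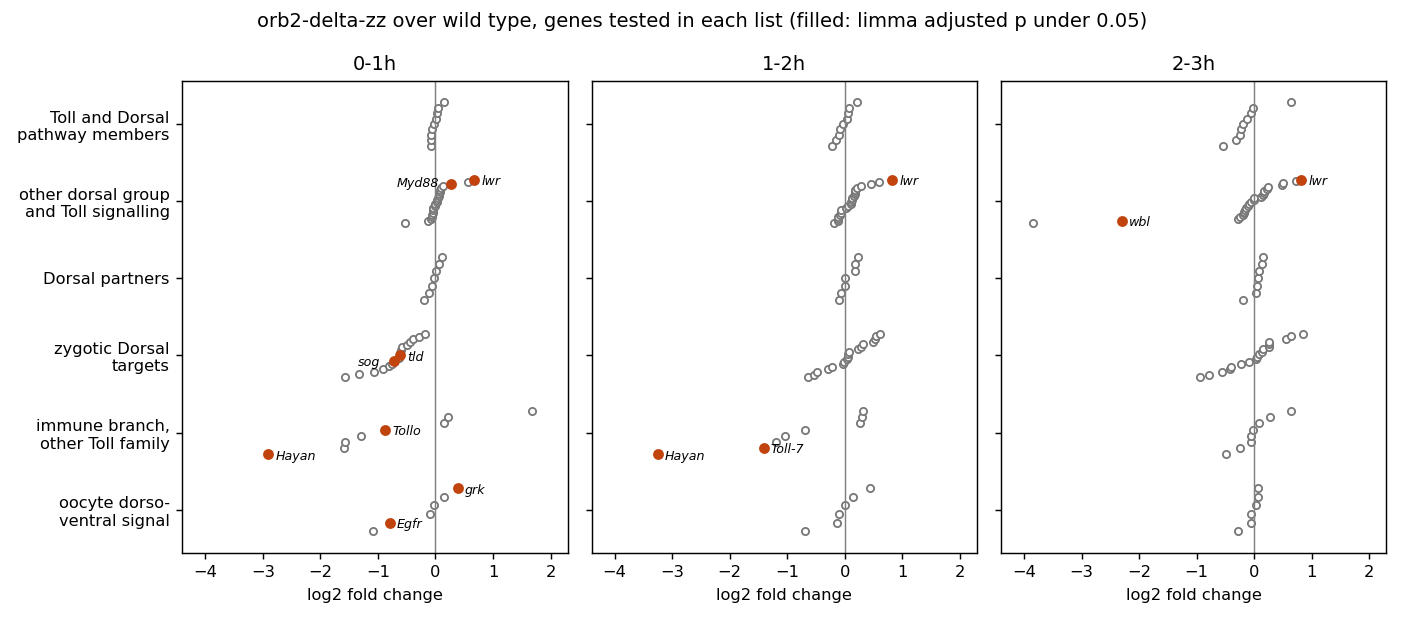
Log2 fold change, orb2-delta-zz over wild type, of each tested gene of the pathway and of 5 related lists at each time, with filled points for genes called by limma (adjusted p under 0.05) and open points for the others. lwr is filled at all 3 times, at 0.67, 0.82 and 0.82, and no pathway member is filled.

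Of 18 zygotic genes that Dorsal activates or represses, 17 were listed at 0-1h, and 2 were called lower in orb2-delta-zz: sog, an inhibitor of the dorsal signal Dpp, and tld, which encodes the protease that cuts Sog. The normalized counts of sog were 403, 296 and 257 in orb2-delta-zz and 629, 447 and 482 in wild type (log2 fold change -0.71, adjusted p = 0.0192, limma). Those of tld were 371, 341 and 273 in orb2-delta-zz and 651, 438 and 439.9 in wild type (log2 fold change -0.62, adjusted p = 0.0301). Both calls were lost without orb2-delta-zz replicate 2, orb2-delta-zz replicate 3 or wild type replicate 1, with adjusted p-values of up to 0.0767 for sog and 0.0888 for tld, and in TPM, with 0.0610 for sog and 0.0867 for tld. All 17 had a log2 fold change below 0, with a median of -0.62, where that of all genes was -0.0080. Libraries did not overlap between genotypes for 7 of 17, against 38.9% of all genes. The targets called lower were 2 of 17, where 10.1% of all genes were called lower. Ventral genes that Dorsal activates, such as twi (-0.75) and sna (-0.58), and dorsal genes that it represses, such as zen (-0.17) and dpp (-0.38), were not separated by sign, and none of these 4 was called.

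The summed level of the targets at 0-1h was low, 30.8 to 42.8 TPM in orb2-delta-zz and 45.1 to 57.7 TPM in wild type. Markers of older embryos were also lower in orb2-delta-zz at 0-1h, with 3 of 6 listed (Mhc among those not listed). Their summed levels were 0.648 to 2.42 TPM in orb2-delta-zz and 3.16 to 3.62 TPM in wild type. Of these, elav was called lower in orb2-delta-zz (log2 fold change -1.27, adjusted p = 0.0131, limma), and without wild type replicate 1 its adjusted p was 0.0582. A listed gene on the opposite strand overlaps 13792 bases of the elav gene, so the elav values are uncertain, as for pll. The 6 maternal markers all had a log2 fold change above 0 at 0-1h, with a median of 0.072. Their summed level was 3921 to 4079 TPM in orb2-delta-zz and 3451 to 3637 TPM in wild type. The germ cell gene pgc alone among them was called higher (0.33, adjusted p = 0.00790, limma), where 11.2% of all genes were. A listed gene on the opposite strand overlaps 1873 bases of the pgc gene, so its values are uncertain too. The part of the older and maternal markers in the values of the targets was not tested. At 1-2h and at 2-3h 0 of 18 targets were called, with medians of 0.059 and 0.069. The summed level at 2-3h was 801 to 971 TPM in orb2-delta-zz and 847 to 967 TPM in wild type, at the time when dl averaged 2.38 TPM in orb2-delta-zz and 2.00 TPM in wild type. At 1-2h the sum in wild type was lowest in replicate 2, at 144 TPM, against 292 and 325 TPM in replicates 1 and 3. In TPM replicate 2 was also the library in which 8 of 9 members were highest, and the share of all genes highest there is not given. In normalized counts dl and spz were highest there, at 4463 and 1962, and the other members in replicate 1 or 3.

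In the oocyte signal that precedes the pathway, grk, the ligand sent to the follicle cells, rose in orb2-delta-zz at 0-1h, to 599, 519.7 and 574 against 460.2, 404 and 429.5 normalized counts in wild type (log2 fold change 0.39, adjusted p = 0.0163, limma). Without orb2-delta-zz replicate 1 its adjusted p was 0.0645, and 212 bases of grk overlap Akap200 on the opposite strand. Its receptor Egfr was lower, at 548, 367 and 527 in orb2-delta-zz against 962, 879 and 656 in wild type (-0.79, adjusted p = 0.0107), with an adjusted p of 0.0518 without wild type replicate 1. Neither was called at 1-2h or 2-3h, nor were the other 4 genes of that list at any time.

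Of 25 genes of the immune branch and the wider Toll family, 8 were listed at each time, and Drs and Dif were listed at none. In orb2-delta-zz 2 of 8 were lower at 0-1h, where 10.1% of all genes were, and 2 of 8 at 1-2h, where 3.85% were. The protease gene Hayan was lower in orb2-delta-zz at 0-1h, at 23.3, 21.1 and 15.8 against 174, 129.8 and 165 normalized counts in wild type (log2 fold change -2.90, adjusted p = 3.15e-05, limma), a call that held without any 1 library and in TPM, where the change was -1.67. At 1-2h it was at -3.25 (adjusted p = 0.0278), lost without any 1 of the orb2-delta-zz replicates or wild type replicate 3 (up to 0.0915) and in TPM (-0.93, adjusted p = 0.105), and it was not listed at 2-3h. The 1-2h mean of Hayan in orb2-delta-zz, 5.44 normalized counts, was below 10, so it passed the filter then through the wild type libraries alone. A non-coding gene on the opposite strand overlaps 1061 bases of Hayan and is listed as well. The receptor gene Tollo was lower at 0-1h (-0.88, adjusted p = 0.0284), where orb2-delta-zz replicate 1, at 2851, stood near the wild type libraries, at 3182, 3142 and 3283, and replicates 2 and 3 at 1494 and 1247. Toll-7 was lower at 1-2h (-1.41, adjusted p = 0.0434). The Tollo call was lost without orb2-delta-zz replicate 2 or 3 or wild type replicate 1 or 3 (adjusted p-values of up to 0.0972), with library weights (0.0678) and in TPM (0.0617). The Toll-7 call was lost without any 1 library but wild type replicate 2 (up to 0.171), and in TPM, where its log2 fold change was -0.69 (adjusted p = 0.0574). Markers of older embryos were also lower in orb2-delta-zz at 1-2h, with 4 of 6 listed (Mhc and Tm2 were not). Their summed level was 6.29 to 10.9 TPM in orb2-delta-zz and 18.4, 50.04 and 12.9 TPM in wild type replicates 1, 2 and 3. Toll-7 did not follow that order, with 372, 185 and 342 normalized counts in the same wild type libraries. Act87E was called lower (-1.40, adjusted p = 0.0421, limma). That call was lost without any 1 of the orb2-delta-zz replicates or wild type replicate 1 (up to 0.131) and in TPM (0.0636). The part of these markers in the values of the immune and Toll family genes was not tested. At 2-3h 0 of the 8 tested genes were called.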

How the data were processed

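Total RNA was depleted of ribosomal RNA and made into strand-specific libraries, per the labels' protocols. Trim Galore 0.6.5, Salmon 1.9.1 and DESeq2 1.42.1 were used, per the submitters' processing notes; the build and annotation they used are not given in these sources. Per time point, the authors deposited normalized counts, a signal per gene and library scaled with DESeq2, and TPM. All 18 libraries were used.

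Genotypes were compared within each time by two-sided tests with limma's trend method (limma 3.58.1, R 4.3.3) on log2(normalized count + 1), where the mean count reached 10, at an adjusted p (Benjamini-Hochberg) of 0.05. Fold changes on this scale understate the change of low genes. Differences between times were tested in a joint fit of 7470 genes. TPM served for levels and for time. Symbols and positions came from the Ensembl annotation of BDGP6.54, by FlyBase identifier (7557 of 7617, 8125 of 8188 and 9075 of 9141 matched). The fits were tested on simulated data. Besides the 9 members, a list gene was named where it was called, at most 4 per list and time; smt3, twi, sna, zen, dpp, gro, CtBP, TfIIA-L and unlisted genes were named after their values were seen. The members and lists were chosen with earlier results of these data known.

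Replicate numbers were checked by the correlation of same-numbered libraries' deviations from their group means. At 1-2h these were 0.159, 0.129 and 0.173, so the numbers may pair the libraries there, judged from the data alone. The 1-2h results given are from the fit without that pairing, which called 597 genes. With the replicate block 495 genes and 0 of 9 members were called at 1-2h. Alternatives covered the pseudocount (0.5), the filter, trimmed mean rescaling, TPM, the block, limma without trend, library weights (gene by gene, since the default method did not converge at 1-2h and 2-3h), separate spreads and each library left out.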

Additional observations from a re-analysis of the deposited data

How the results depend on the processing

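The number of genes called was 1610 at 0-1h, 597 at 1-2h and 296 at 2-3h. Library weights gave 1842 at 1-2h and 3884 at 2-3h, with 4 of 9 members called at 2-3h, all lower. Of all genes 21.3% were called lower there and 43.1% in either direction. With the replicate block the counts were 1160, 495 and 55, and 0 members were called; same-numbered libraries did not deviate together at 0-1h (correlations of -0.0608 to 0.0246) or 2-3h (-0.332 to -0.126), so these numbers are shared in name only, and the block lost the calls of Myd88 at 0-1h (adjusted p = 0.0605) and of lwr (0.0564), wbl (0.117) and Hml (0.173) at 2-3h, and changed no member's call. Limma without trend lost Myd88, sog, tld, Tollo, Egfr, pgc and elav at 0-1h and Toll-7 and Act87E at 1-2h. In TPM the called genes split into 789 higher and 455 lower at 0-1h, against 844 and 766 in normalized counts, and into 292 and 204 at 1-2h, against 285 and 312. Leaving out 1 library gave 1093 to 1617 genes at 0-1h, 203 to 1256 at 1-2h and 77 to 1654 at 2-3h, with 0 members at 0-1h and 1-2h, 0 to 4 at 2-3h, and 0 to 4 for the differences that involve 2-3h.

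The sign of a member's log2 fold change depended on the setting at each time. In TPM the log2 fold change of snk at 0-1h was 0.0060, and those of ea and Tl at 1-2h were 0.0080 and 0.062 and that of pll at 2-3h 0.018. With 1 library left out, gd ran from -0.047 to 0.092 and snk from -0.12 to 0.055 at 0-1h. At 1-2h spz ran from -0.13 to 0.18, Tl from -0.058 to 0.013, pll from -0.00021 to 0.11, cact from -0.17 to 0.015 and dl from -0.073 to 0.24. At 2-3h snk ran from -0.82 to 0.22, ea from -0.29 to 0.0060, spz from -1.23 to 0.37, tub from -0.31 to 0.22, pll from -0.22 to 0.15 and dl from -0.21 to 1.33. The cause was not tested. The other alternatives (pseudocount, filter, rescaling, limma without trend) called 0 members at every time. Separate spreads applied only to the differences of the genotype effect between times, and called 0 members there. The depth of the libraries is unknown, and with 3 libraries per group the 95% intervals of dl, spz and snk at 2-3h reach past a log2 fold change of 1 in both directions.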
